A study of Homo sapiens with 15 samples.

Results

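The comparison described here sets A549 cells given Compound A directly against A549 cells in which ALOX15 was knocked down, with interleukin-4 (IL4) present in both. Its members are 6 of the 15 RNA-seq libraries, chosen by treatment label alone: 3 with IL4 and Compound A, and 3 with IL4 and ALOX15 siRNA. A549 is an epithelial line from a human lung adenocarcinoma. Both groups received IL4 at 10 ng/ml, and the knockdown group also received a pooled ALOX15 siRNA at 1 uM, with 48 h given as the time. Levels in 3 other groups of 3 libraries are set beside them where useful: untreated cells, IL4 alone, and IL4 with a non-targeting siRNA. The sources used here name neither the nature, dose nor vehicle of Compound A, nor the dose of the control siRNA, nor any mock transfection of the compound-treated cells. One arm was therefore transfected and the other, as far as the labels say, was not, so that Compound A and the absence of transfection cannot be told apart in the direct comparison. The labels do not say whether replicates were separate cultures, so the spread that the p-values rest on may be technical.

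ALOX15 encodes 15-lipoxygenase-1, an enzyme that inserts oxygen into arachidonic and linoleic acid and into phospholipids that carry them. IL4 induces it in airway epithelium through STAT6. An siRNA acts by having the target mRNA cut, and the sources used here do not say what Compound A acts on. Several results below concern sterol and fatty acid genes. The transcription factors SREBP-1 and SREBP-2 switch these on when membrane sterol is scarce. INSIG1 holds the precursors of both factors in the endoplasmic reticulum and is itself one of their targets.

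The 6 libraries held between 6455431 and 9526975 estimated counts. Principal component 1 carried 42.2% of the variance of the 6 libraries and separated the groups, the knockdown libraries lying at -17.4 to -13.4 and the compound libraries at 13 to 17.3. Replicates differed by more than counting noise (chi-square per degree of freedom 1.81 to 4.67), and none was a copy of another. The label calls the cells alveolar type II like, but the 5 surfactant genes each averaged under 1 CPM (counts scaled to a common library size) in both groups. General A549 epithelial genes were abundant, with 8 of them summing to 30510 to 31249 CPM after knockdown and 27891 to 29728 CPM with Compound A. Of 32 markers of other cell types, the leukocyte genes PTPRC, CD3E, CD3D, MS4A1 and CSF1R were among those at 0 in all 6 libraries. So were the endothelial KDR, the fibroblast COL1A2 and DCN, and TPSAB1 and SCGB1A1. Others of the same types were detected at low level. Endothelial PECAM1, VWF and CDH5 reached at most 0.387, 0.157 and 0.118 CPM in any of the 6. Among fibroblast and leukocyte genes, COL3A1 reached 2.26, LUM 1.73, CD14 1.16, PDGFRB 0.353 and LYZ 0.314 CPM. The 32 summed to 116 to 123 CPM after knockdown and 79.8 to 93.8 CPM with Compound A, most of it from TUBB3, CD68, COL1A1 and ACTA2. In bulk RNA, fewer cells of a type and less RNA per cell cannot be told apart.

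ALOX15 itself (ENSG00000161905.12, minus strand of chromosome 17, 4630902 to 4642294 on GRCh38) was measured first, as the check of the knockdown label. Its level was 2.59, 2.23 and 1.81 CPM in Compound A replicates 1, 2 and 3, and 0.136, 0.314 and 0.258 CPM in the knockdown replicates. Every compound library thus lay above every knockdown library. Since the knockdown libraries together held 5 ALOX15 counts and the compound libraries 55, the ratio of levels was 9.61 (95% range 3.88 to 30.8, from counting error alone). The edgeR quasi-likelihood fit gave a log2 difference, Compound A minus knockdown, of 3.17 (SE 0.52, adjusted p = 1e-05). For comparison, the level averaged 5.27 ± 0.659 CPM with IL4 alone, 3.58 ± 0.313 with control siRNA and 0.136 ± 0.151 without IL4 (SD, n = 3 each). Compound-treated cells therefore kept an ALOX15 level between that of the knockdown and that of IL4 alone. The difference from the knockdown passed with each of the 6 libraries left out in turn.

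**Figure D1:**
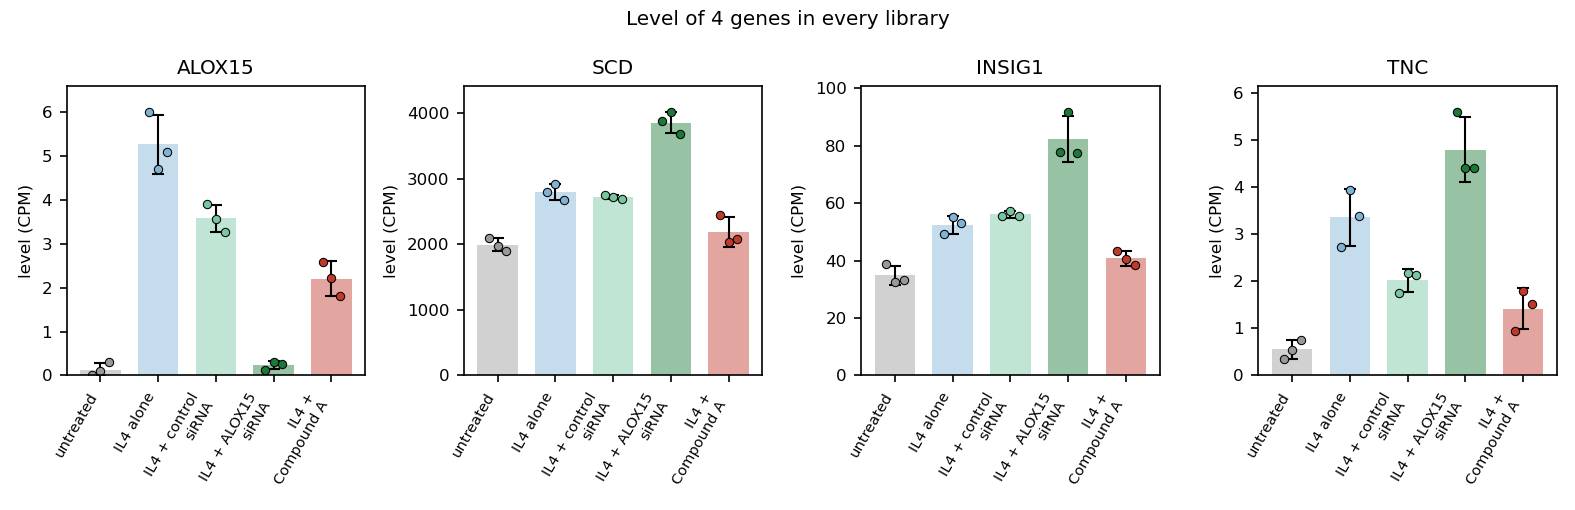
Level of ALOX15, SCD, INSIG1 and TNC in CPM (y axis, starting at 0) in the 5 groups (x axis); points are libraries, bars are group means and whiskers are SD (n = 3). The compound libraries lie above the knockdown libraries for ALOX15 (2.21 against 0.236 CPM) and below them for the other genes, with no overlap.

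SCD, INSIG1 and TNC differed the opposite way from ALOX15. SCD, the desaturase that makes oleic and palmitoleic acid (chromosome 10, plus strand, 100347124 to 100364834), stood at 2456, 2037 and 2077 CPM with Compound A. After knockdown it stood at 3880, 4016 and 3685 CPM. The lowest knockdown library exceeded the highest compound library, and the difference was 1.76-fold (log2 -0.82, SE 0.08, adjusted p = 0.00029). INSIG1, the sterol-responsive anchor of SREBP precursors, was measured at 43.5, 40.6 and 38.3 CPM with Compound A and at 77.7, 91.6 and 77.5 CPM after knockdown. That is a 2-fold lower level with Compound A (log2 -1.0, SE 0.07, adjusted p = 3.7e-14). TNC, which encodes the matrix glycoprotein tenascin-C (chromosome 9, minus strand, 115019578 to 115118257), had low levels, 0.940, 1.80 and 1.51 CPM with Compound A and 5.58, 4.39 and 4.39 CPM after knockdown. Its 3.34-fold difference also passed (log2 -1.74, SE 0.29, adjusted p = 1.2e-05).

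These genes lay on either side of their reference groups. SCD averaged 2801 ± 118 CPM with IL4 alone and 2727 ± 30.8 CPM with control siRNA, so that the compound mean of 2190 ± 231 was below both and the knockdown mean of 3860 ± 166 above both. INSIG1 averaged 52.4 ± 3.05 and 56.1 ± 1.16 CPM in those reference groups, again between 40.8 ± 2.58 with Compound A and 82.3 ± 8.13 after knockdown. TNC averaged 3.35 ± 0.602 and 2.01 ± 0.241 CPM, between 1.42 ± 0.439 and 4.79 ± 0.684. The difference of the effects, Compound A against IL4 alone less knockdown against control siRNA, was fitted on all 15 libraries to take each arm against its own reference. It was -0.86 for SCD (SE 0.09, adjusted p = 5.8e-06), -0.91 for INSIG1 (SE 0.12, adjusted p = 0.00016) and -2.47 for TNC (SE 0.38, adjusted p = 0.00057). One IL4-alone library, replicate 1, stood apart from its group mates. Without it these differences were -0.86, -0.95 and -2.60, and all 3 still passed.

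Across the transcriptome, 2720 of 12466 genes tested differed between the arms (21.8%), 1342 higher (10.8%) and 1378 lower (11.1%) with Compound A. Most differences were small: 2154 of the 2720 were under 0.5 in log2 size, and 102 genes (0.818%) reached 2-fold, 28 higher and 74 lower. The number of calls depended on the fit. Fitting all 15 libraries together gave 1171 calls (9.15%; 3.52% higher and 5.63% lower). Leaving IL4 replicate 1 out of that fit gave 2100 (16.2%; 7.57% higher and 8.65% lower). DESeq2 on the 6 libraries gave 1487 (12.5%; 5.79% higher and 6.71% lower). Of the 1171 calls 1158, and of the 1487 calls 1474, were also made, with the same sign, in the fit of the 6 libraries. All these fits compare the same 6 libraries, so the shared sign is not separate evidence of direction. Leaving out Compound A replicate 2 lowered the count to 1809. The difference of effects gave 658 calls (5.14%; 1.94% higher and 3.2% lower), or 818 (6.32%; 2.41% and 3.91%) without IL4 replicate 1. Against their own references, 1846 genes (14.4%; 6.35% higher and 8.07% lower) differed with Compound A, or 1268 (9.8%; 3.96% and 5.84%) without IL4 replicate 1. After knockdown 89 genes differed (0.696%; 0.313% higher and 0.383% lower). The first of these counts shares the compound libraries, and the last the knockdown libraries, with the direct comparison.

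**Figure D2:**
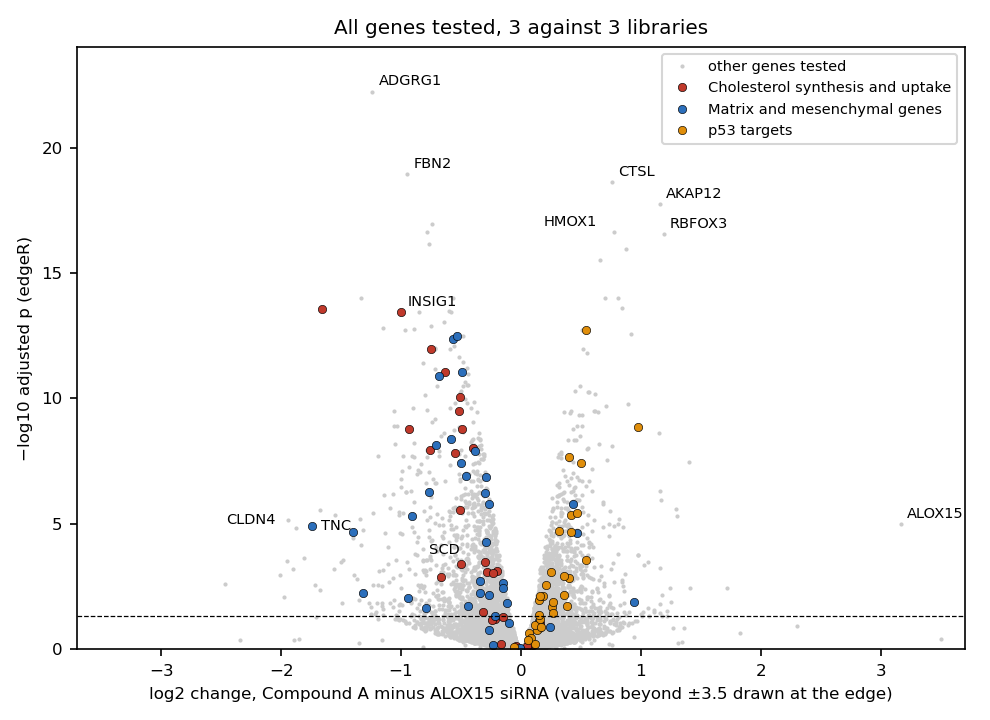
Each point is 1 of the 12466 genes tested: the x axis is the log2 change, Compound A minus ALOX15 siRNA, and the y axis is the −log10 of the edgeR adjusted p, with the dashed line at 0.05. Cholesterol genes (red) and matrix genes (blue) lie mostly to the left, p53 targets (orange) to the right, and ADGRG1 has the smallest adjusted p, 5.7e-23.

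Many genes along the cholesterol pathway were lower with Compound A. Of its 28 members tested, 19 were lower and none higher (67.9% called, beside 21.8% of all genes), with a median log2 difference of -0.36 where the median of all genes was 0.00. In 20 of the 28 the 3 and 3 libraries did not overlap, beside 35.5% of all genes tested. The calls ran from an early step, HMGCS1 (-0.40), through the isoprenoid enzymes MVK (-0.67), MVD (-0.50), IDI1 (-0.55) and FDPS (-0.28). They went on through squalene synthesis and cyclisation, FDFT1 (-0.52), SQLE (-0.51) and LSS (-0.76), to the late sterol enzymes MSMO1 (-0.63), NSDHL (-0.51) and DHCR7 (-0.30), all as log2 differences. Pathway enzymes that did not pass were PMVK (0.08), ACAT2 (-0.24), EBP (-0.22), SC5D (-0.04) and TM7SF2 (0.10). The 15-library fit called 15 lower and none higher, and the GC-corrected fit called 20 lower and 1, SCAP, higher (0.21, adjusted p = 0.017).

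LSS, the cyclase that forms the sterol rings (chromosome 21, minus strand, 46188141 to 46228824), was at 27.6, 25.2 and 21.6 CPM with Compound A and at 42.8, 42.4 and 41.6 CPM after knockdown. This was a 1.69-fold difference (log2 -0.76, SE 0.09, adjusted p = 1.1e-08). SQLE, the epoxidase that acts just before it, was at 129, 137 and 128 CPM against 180, 196 and 186 CPM (log2 -0.51, SE 0.05, adjusted p = 9e-11). MSMO1, a demethylating oxidase of the later steps (chromosome 4, plus strand, 165327623 to 165343160), was at 102, 91.4 and 91.9 CPM against 138, 154 and 152 CPM (log2 -0.63, SE 0.06, adjusted p = 8.8e-12). In each of these genes every compound library lay below every knockdown library. SREBF2, which encodes SREBP-2, differed less, with means of 130 and 152 CPM (log2 -0.23, SE 0.05, adjusted p = 0.00088; 0.098 in the 15-library fit). Its partners in the endoplasmic reticulum did not pass: SCAP gave 0.16 (SE 0.07, adjusted p = 0.09) and INSIG2 gave 0.05 (SE 0.09, adjusted p = 0.77).

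Promoter sequence of INSIG1 and SREBF2 is shown because both encode parts of the sterol switch itself and because their letters show the elements searched for. The stretches are the 250 bases before the start in RefSeq on GRCh38.p14, plus strand, INSIG1 at chr7:155297628-155297877 and SREBF2 at chr22:41832855-41833104. Capitals mark an inverted CCAAT box (read here as ATTGG), the site of factor NF-Y, which begins 170 bases before the INSIG1 start and 106 before that of SREBF2. The longer run of capitals in SREBF2, 134 bases before the start, is a sterol element, searched as ATCAC, any base, then CCAC.
INSIG1: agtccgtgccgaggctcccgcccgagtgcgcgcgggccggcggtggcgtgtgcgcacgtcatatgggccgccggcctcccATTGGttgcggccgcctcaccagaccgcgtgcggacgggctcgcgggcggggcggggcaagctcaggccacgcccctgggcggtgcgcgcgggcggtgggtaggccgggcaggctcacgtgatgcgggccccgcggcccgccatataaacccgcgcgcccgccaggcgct
SREBF2: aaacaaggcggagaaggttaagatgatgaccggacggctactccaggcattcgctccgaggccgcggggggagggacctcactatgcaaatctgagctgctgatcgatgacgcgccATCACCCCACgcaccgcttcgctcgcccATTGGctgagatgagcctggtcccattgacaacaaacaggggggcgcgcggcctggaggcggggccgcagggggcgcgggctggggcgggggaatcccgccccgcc
Both elements were searched on both strands of windows from 250 bases before to 50 bases after the start. CCAAT was present for 18 of the 22 cholesterol genes with a window (81.8%), for 12 of the 13 of these that were lower (92.3%), and for 4094 of the 9420 tested genes with a window (43.5%). The sterol element as spelled was present for SREBF2 alone among the 22 (4.55%), and for 15 of the 9420 (0.159%). A match is a description of the sequence and not a binding site, and no match says only that these letters are not in this window.

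Cholesterol gene levels in the reference groups were compared with both arms. By group means, Compound A was below both IL4 alone and control siRNA for 23 of the 28 members, the knockdown was above both for 17, and 14 did both, beside 5029, 4671 and 1383 of the 12466 genes tested. Against IL4 alone, 14 members were lower with Compound A and none higher, also without IL4 replicate 1. Of all genes, 8.07% were lower in that comparison, or 5.84% without that library. Against control siRNA, 1 member, INSIG1 (log2 0.55, adjusted p = 0.0024), was higher after knockdown and none lower, beside 0.313% and 0.383% of all genes. The median log2 was -0.22 in the former and 0.14 in the latter comparison. LSS read 40.9, 39.0 and 32.1 CPM with IL4 alone and 35.1, 35.3 and 31.1 CPM with control siRNA, so that its lowest reference library exceeded the compound libraries and its highest lay below the knockdown libraries. SQLE lay likewise between the arms, at 157, 160 and 165 CPM with IL4 alone and 160, 164 and 155 CPM with control siRNA. The difference of effects passed for 10 members, all lower, and for 13 without IL4 replicate 1, beside 3.2% and 3.91% of all genes lower. It was -0.90 for LSS (adjusted p = 0.0048) and -0.52 for SQLE (adjusted p = 0.0014), but did not pass for MSMO1 (-0.41, adjusted p = 0.30), where it was -0.63 (adjusted p = 1.6e-05) without IL4 replicate 1.

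**Figure D3:**
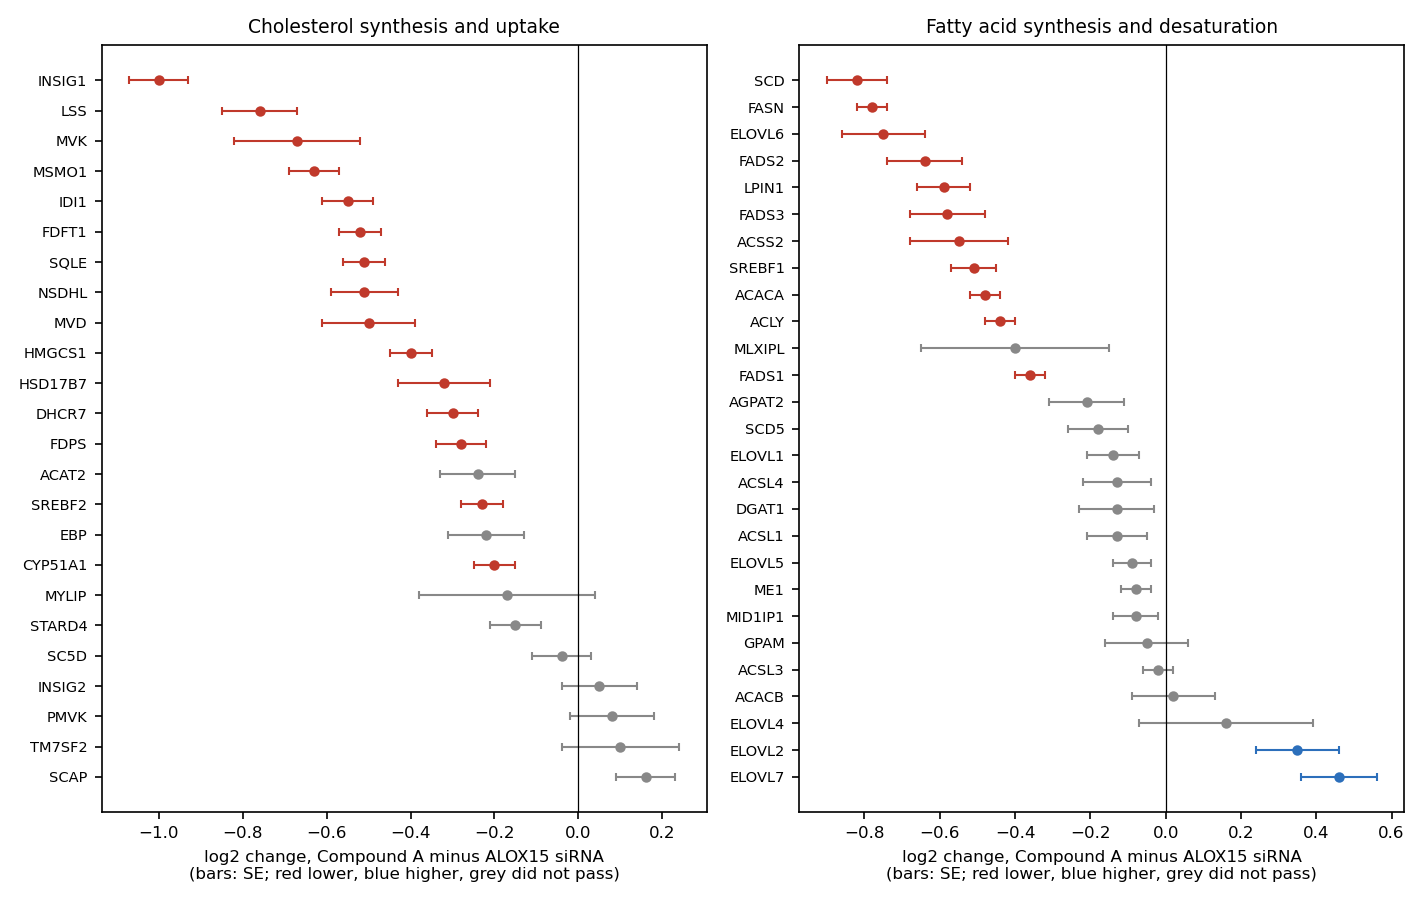
Log2 change, Compound A minus ALOX15 siRNA (x axis), of tested members of the cholesterol list (left) and the fatty acid list (right); points are fitted values, bars are SE, red is lower, blue higher and grey did not pass. INSIG1 (-1.0) and LSS (-0.76) are lowest of the genes shown on the left, SCD (-0.82) and FASN (-0.78) on the right.

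Fatty acid genes formed a smaller version of the same pattern. Of 27 tested members, 11 were lower and 2 higher with Compound A (48.1% called, beside 21.8% of all genes), with a median log2 of -0.18. The lower ones were the core of the lipogenic route: ACLY (-0.44) and ACSS2 (-0.55), which supply acetyl-CoA, ACACA (-0.48), which makes malonyl-CoA, and the synthase FASN. With them were the elongase ELOVL6 (-0.75), the desaturases SCD, FADS1 (-0.36), FADS2 (-0.64) and FADS3 (-0.58), the phosphatase LPIN1 (-0.59), and SREBF1 (-0.51), which encodes SREBP-1. FASN (chromosome 17, minus strand, 82078333 to 82098332) was at 201, 180 and 188 CPM with Compound A and at 325, 327 and 326 CPM after knockdown, 1.72-fold apart (log2 -0.78, SE 0.04, adjusted p = 2.3e-17). It was uneven with IL4 alone, at 424, 295 and 250 CPM, and its difference of effects did not pass (log2 -0.88, SE 0.24, adjusted p = 0.058; -0.64 and 0.09 without IL4 replicate 1). The elongases ELOVL2 (0.35) and ELOVL7 (0.46) were the higher members. ELOVL7 was at 27.4, 29.8 and 28.7 CPM against 18.0, 19.6 and 24.4 CPM. ELOVL2 lost its call when ALOX15 siRNA replicate 1, Compound A replicate 1 or Compound A replicate 3 was left out (adjusted p = 0.13, 0.05 and 0.053).

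Other lipid genes passed at near or below the share of all genes. Among 18 lipid droplet, PPAR target and fatty acid oxidation genes, 2 were higher and 1, HADHA (-0.20), lower (16.7% called, beside 21.8% of all genes). The higher ones were PDK4, the kinase that shuts pyruvate dehydrogenase (159, 147 and 131 CPM against 88.3, 99.7 and 103 CPM, log2 0.59), and HILPDA, a lipid droplet protein that restrains lipolysis (38.3, 36.0 and 28.7 CPM against 22.6, 20.1 and 21.8 CPM, log2 0.68). Against control siRNA both were lower after knockdown, by log2 -0.46 (adjusted p = 0.0078) and -0.56 (adjusted p = 0.011), while against IL4 alone Compound A gave 0.00 and 0.20 for them, without passing. Of 9 liver X receptor genes, NR1H2 (0.19) and APOE (0.56) were higher and none lower (22.2% called). Neither passed in the 15-library fit, nor without ALOX15 siRNA replicate 1 or Compound A replicate 3. NR1H2 also did not pass without Compound A replicate 2 (adjusted p = 0.087), nor APOE without ALOX15 siRNA replicate 2 (0.12) or replicate 3 (0.057). The cholesterol exporter ABCA1 gave 0.05 (SE 0.07, adjusted p = 0.65).

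The lipoxygenase and prostaglandin genes went both ways. Of 18 tested, ALOX15, PTGS2 and CYP4F3 (whose counts were partly shared with another gene) were higher, and PTGES3, HPGD and PTGR1 were lower. That is 33.3% called, beside 21.8% of all genes, with the siRNA target ALOX15 counted. PTGS2, the inducible cyclooxygenase (chromosome 1, minus strand, 186671791 to 186680427), was at 426, 432 and 427 CPM with Compound A and at 259, 277 and 274 CPM after knockdown (log2 0.66, SE 0.04, adjusted p = 3e-16). It read 308, 365 and 400 CPM with IL4 alone and 400, 350 and 421 CPM with control siRNA, so that the knockdown libraries were the lowest of the IL4-treated ones. HPGD, which inactivates prostaglandins, ran the opposite way, at 194, 165 and 160 CPM against 223, 256 and 265 CPM (log2 -0.52, adjusted p = 0.008; 0.067 in the 15-library fit). PLA2G4A, the phospholipase that frees arachidonic acid, did not pass (0.14, adjusted p = 0.092), nor did ALOX5 (-0.58, adjusted p = 0.24). The 15-library fit left 1 member lower, and 5 were lower without Compound A replicate 1.

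Matrix genes were the most frequently called list. Of 39 tested, 28 were lower with Compound A and 3 higher (79.5% called, beside 21.8% of all genes), with a median log2 of -0.30. In 33 of the 39 the libraries did not overlap, beside 35.5% of all genes tested. The lower members included collagens (COL1A1 -0.91, COL4A1 -0.34, COL4A2 -0.46, COL5A1 -0.58, COL6A1 -0.77, COL7A1 -0.94, COL12A1 -0.50), the fibrillin FBN1 (-0.68) and the proteoglycan VCAN (-0.53). FBN1 read 60.1, 61.7 and 57.0 CPM with Compound A and 101, 92.6 and 93.2 CPM after knockdown. THBS1, the matricellular thrombospondin-1, read 177, 165 and 164 CPM against 253, 254 and 244 CPM (log2 -0.57, SE 0.04, adjusted p = 4.4e-13). VCAN, which encodes versican, read 218, 214 and 217 CPM against 314, 309 and 315 CPM (log2 -0.53, SE 0.04, adjusted p = 3.2e-13). For VCAN the difference was -0.36 for Compound A against IL4 alone (adjusted p = 0.00033) and 0.05 for knockdown against control siRNA (adjusted p = 0.87). For FBN1 the values were -0.47 for Compound A against IL4 alone (adjusted p = 0.00017) and 0.08 for knockdown against control siRNA (adjusted p = 0.82).

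The higher matrix members were CTGF (0.43) and CYR61 (0.47), secreted proteins often used as readouts of the YAP pathway, and the protease inhibitor TIMP3 (0.94). CTGF was at 70.5, 72.8 and 71.7 CPM against 54.8, 54.3 and 50.4 CPM, with no overlap. TIMP3 was at 4.70, 3.82 and 2.87 CPM against 2.04, 2.04 and 1.94 CPM, and lost its call without Compound A replicate 1 (0.76, adjusted p = 0.081). FBN2, a fibrillin outside the list, had the smallest p after ADGRG1: it read 237, 211 and 210 CPM against 434, 421 and 415 CPM (log2 -0.95, SE 0.04, adjusted p = 1.1e-19). The difference of effects passed for 13 matrix members lower and 1 higher, beside 3.2% and 1.94% of all genes. Without IL4 replicate 1 it passed for 15 and 3, beside 3.91% and 2.41%.

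Junction and keratin genes were lower as single genes rather than as a family. Among 30 tested, 11 were lower and 3 higher (46.7% called, beside 21.8% of all genes), while the median was -0.05. Claudin-2, CLDN2 (chromosome X, plus strand, 106900164 to 106930861), a channel-forming tight junction protein, was at 193, 154 and 166 CPM with Compound A and at 351, 351 and 346 CPM after knockdown (log2 -1.03, SE 0.06, adjusted p = 1.3e-09). CLDN4, a barrier-forming claudin of low level here, was at 1.06, 0.849 and 1.36 CPM against 4.22, 4.24 and 3.87 CPM (log2 -1.94, SE 0.31, adjusted p = 7.1e-06). The stress keratins KRT6A (not in the list; -1.68) and KRT16 (-1.32) and the simple keratin KRT19 (-0.80) were also lower. KRT6A read 1.41, 2.02 and 1.81 CPM against 5.85, 5.18 and 5.81 CPM. The major keratin KRT7 gave -0.05 (SE 0.04, adjusted p = 0.34), and KRT8 and KRT18 gave -0.19 and -0.12. The higher members, CLDN1 (0.13), OCLN (0.22) and KRT81 (0.11, shared reads), were no longer called without ALOX15 siRNA replicate 2 or Compound A replicate 3, and 1 was called without Compound A replicate 2. The 15-library fit called 6 members lower and none higher. Without ALOX15 siRNA replicate 1, or without Compound A replicate 2, 7 were lower.

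p53 targets were higher with Compound A. Of 31 tested, 22 were higher and none lower (71.0%, beside 10.8% of all genes higher and 21.8% called either way). The median log2 was 0.26. The arrest and feedback genes MDM2, CCNG1 (0.21), BTG2 (0.54) and PPM1D (0.36), the death genes BAX (0.25) and TNFRSF10B (0.15), the sestrin SESN1 (0.38) and the repair genes POLH (0.36), RRM2B (0.40) and GADD45A (0.50) were among them. MDM2, the ubiquitin ligase that degrades p53 (chromosome 12, plus strand, 68808176 to 68850686), was at 409, 426 and 417 CPM with Compound A and at 281, 276 and 301 CPM after knockdown (log2 0.54, SE 0.04, adjusted p = 1.9e-13). GDF15, a stress cytokine (chromosome 19, plus strand, 18374731 to 18389176), was at 167, 209 and 197 CPM against 98.5, 93.2 and 98.0 CPM (log2 0.98, SE 0.07, adjusted p = 1.4e-09). CDKN1A, the best known arrest gene of the pathway, did not pass: its means were 497 and 475 CPM, with a log2 difference of 0.07 and a 95% interval, by the normal approximation from the SE, of -0.01 to 0.14.

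Each arm was also set against its own reference. The median log2 of the list was 0.33 for Compound A against IL4 alone, with 15 members higher, beside 6.35% of all genes. Without IL4 replicate 1 the median was 0.23, with 14 members higher, beside 3.96%. For knockdown against control siRNA the median was -0.01, with no member passing, beside 0.696% of all genes called in that comparison. At so low a share, the lack of a call says little about the list. In 28 of the 31 the compound mean exceeded both reference means, beside 5212 of the 12466 genes tested. MDM2 was at 198, 306 and 318 CPM with IL4 alone, where replicate 1 was the low one, and at 316, 271 and 325 CPM with control siRNA. The 15-library fit called 12 of the 31 higher, and the same fit without IL4 replicate 1 called 19, beside 3.52% and 7.57% of all genes. The difference of effects called 8, or 9 without that library, beside 1.94% and 2.41%.

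**Figure D4:**
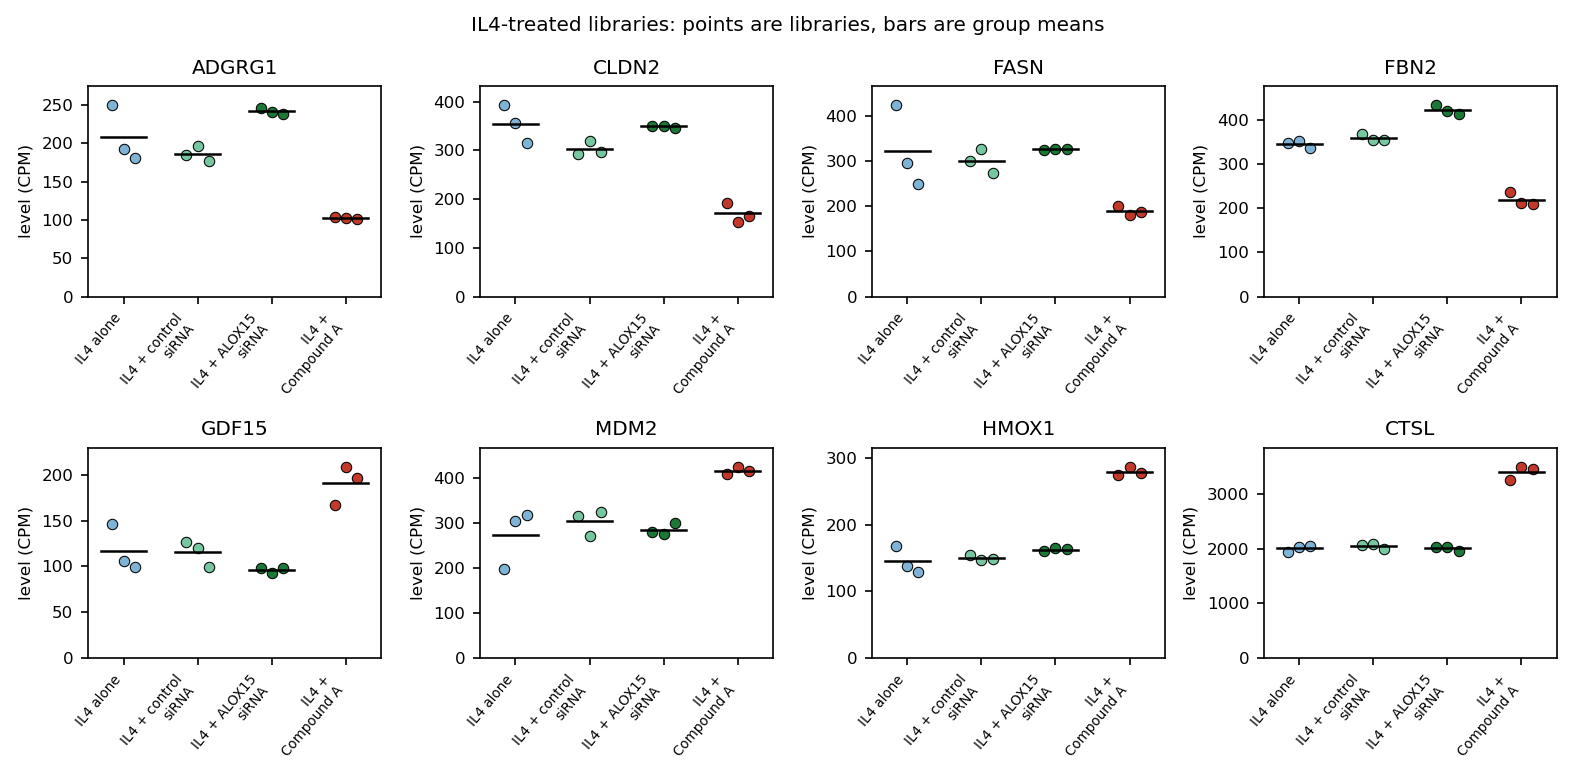
Level in CPM (y axes, starting at 0) of 8 genes in the 12 IL4-treated libraries; points are libraries and bars are group means. ADGRG1, CLDN2, FASN and FBN2 are lowest, and GDF15, MDM2, HMOX1 and CTSL highest, in the Compound A libraries.

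Single genes with the firmest differences included several with large levels. ADGRG1, an adhesion G protein-coupled receptor (chromosome 16, plus strand, 57610652 to 57665580), had the smallest p of all: 104, 102 and 101 CPM with Compound A against 246, 241 and 239 CPM after knockdown (log2 -1.24, SE 0.05, adjusted p = 5.7e-23). CTSL, the lysosomal protease cathepsin L (chromosome 9, plus strand, 87725519 to 87731393), was higher, at 3260, 3505 and 3457 CPM against 2027, 2035 and 1969 CPM (log2 0.76, SE 0.04, adjusted p = 2.4e-19). Its reference libraries lay at 1943 to 2097 CPM, close to the knockdown. AKAP12, a scaffold that binds protein kinase A, was 2.23-fold higher, at 159, 181 and 179 CPM against 82.4, 72.2 and 77.3 CPM. TFPI2, a protease inhibitor of the matrix, was at 169, 174 and 162 CPM against 86.8, 91.2 and 95.9 CPM. RBFOX3, a splicing factor known from neurons, was at 86.5, 98.9 and 97.3 CPM against 39.2, 41.4 and 43.4 CPM. Against its own reference RBFOX3 was higher with Compound A (0.62, adjusted p = 7.1e-05) and lower after knockdown (-0.69, adjusted p = 0.00029). The giant scaffold AHNAK2 (569 ± 9.72 against 949 ± 57.1 CPM) and the actin-binding TAGLN2 (152 ± 5.65 against 259 ± 4.20 CPM) were lower (SD, n = 3). The heat shock gene HSPA1A (28.6 ± 1.00 against 72.2 ± 9.48 CPM) was lower as well, but its reads are shared with a near-identical copy in all 6 libraries, and its value is uncertain.

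The genes of highest log2 difference were mostly of low level. After ALOX15, the highest by the naming rule were DIRAS3 (log2 1.72), EGR1 (1.41), C10orf54 (1.40), SERPINI1 (1.30), ITGA10 (1.29), SRCIN1 (1.25), C2orf88 (1.24), RBFOX3 (1.19), TMCC2 (1.18), SDPR (1.17) and SULT2B1 (1.16). RBFOX3, with a mean of 94.2 CPM with Compound A, was the exception in level. SRCIN1 lost its call without ALOX15 siRNA replicate 2, Compound A replicate 1 or Compound A replicate 2 (adjusted p = 0.062, 0.05 and 0.08), and TMCC2 without Compound A replicate 2 (0.071). SULT2B1, a sulfotransferase of cholesterol and other sterols, was at 14.1, 11.8 and 14.6 CPM with Compound A and at 6.94, 6.28 and 4.78 CPM after knockdown. Its reference means were like the compound group, the knockdown differing from control siRNA by -1.01 (adjusted p = 0.016) and Compound A from IL4 alone by 0.09 (adjusted p = 0.77). For SERPINI1, the serpin neuroserpin, the knockdown differed from control siRNA by -1.22 (adjusted p = 0.00071) and Compound A from IL4 alone by 0.49 (adjusted p = 0.03; 0.086 without IL4 replicate 1). The lowest included MSH5-SAPCD1 (-2.47), TAT (-2.01), B3GALT5 (-1.95), CLDN4, UBD (-1.90), ITGAX (-1.88), UGT1A6 (-1.81), TNC, PLAC1 (-1.72), KRT6A and CHST1 (-1.56). MSH5-SAPCD1 and UGT1A6 share reads with overlapping or related genes in most libraries, and the former did not pass in the 15-library fit or with DESeq2 (adjusted p = 0.076 in both). ITGAX, an integrin chain best known from myeloid cells, was at 1.06, 0.849 and 1.36 CPM against 4.62, 3.77 and 3.49 CPM. The leukocyte gene PTPRC was at 0 in all 6 libraries, while CD14 reached 1.16 CPM. CD68 reached 15.5 CPM and was also lower with Compound A (-0.66, adjusted p = 0.00083). Which cells the ITGAX reads came from was not tested.

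The NRF2, glutathione and heme list split. Of 36 tested, 11 were higher and 8 lower (52.8% called, beside 21.8% of all genes), with a median of 0.02. HMOX1, which breaks down heme (chromosome 22, plus strand, 35380361 to 35394214), was at 274, 287 and 278 CPM with Compound A and at 160, 165 and 163 CPM after knockdown (log2 0.78, SE 0.04, adjusted p = 2.3e-17). The other higher members included TXNRD1 (0.36), GCLM (0.40) and GCLC (0.32), which serve thioredoxin reduction and glutathione synthesis. The lower ones included TALDO1 (-0.21), PRDX1 (-0.18) and AKR1B10 (-0.35, reads shared with related genes). NQO1, a standard target of the factor, gave -0.10 (SE 0.04, adjusted p = 0.054), and the cystine carrier SLC7A11 gave 0.00 (SE 0.04, adjusted p = 0.97). The 15-library fit called 5 higher and 5 lower. Without ALOX15 siRNA replicate 2 or Compound A replicate 2 the higher count was 5, and without Compound A replicate 3 it was 6. TGACNNNGC, the antioxidant element, was in the promoter windows of 8 of the 27 genes with one (29.6%) and of 1854 of the 9420 tested genes with one (19.7%).

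Among IL4 response genes the best known target did not pass. CCL26, the eosinophil attractant that IL4 induces strongly, was at 104, 99.2 and 96.7 CPM with Compound A and at 112, 104 and 106 CPM after knockdown (log2 -0.10, 95% interval -0.21 to 0.01, adjusted p = 0.20). CISH, a feedback inhibitor, gave -0.05 (interval -0.24 to 0.14), and STAT6 gave 0.03 (interval -0.08 to 0.14). Of 20 list members tested, 6 were lower and 3 higher (45.0% called, beside 21.8% of all genes). ALOX15, the siRNA target, was among the higher. DUOX2, a peroxide-producing oxidase of airway surfaces, was at 5.49 ± 1.06 against 10.8 ± 0.945 CPM (SD, n = 3; log2 -0.99, SE 0.17, adjusted p = 2.5e-05). The receptor chain IL4R was at 18.0, 16.1 and 16.0 CPM against 24.3, 19.8 and 25.6 CPM (log2 -0.48, adjusted p = 0.0011). The lower count was 3 without ALOX15 siRNA replicate 2 or Compound A replicate 3, and the higher count was 1 in the 15-library fit and with DESeq2.

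Inflammatory and interferon genes were called in both directions. Of 23 NF-kB and cytokine genes 7 were called (30.4%, beside 21.8% of all genes), of which CXCL8 (0.47), LCN2 (0.78), RELB (0.43) and NFKBIA (0.28) were higher and TRAF1 (-0.86), IL11 (-0.97) and C3 (-0.60) lower. Complement C3 was at 221, 224 and 207 CPM with Compound A and at 333, 336 and 320 CPM after knockdown, and IL11, a cytokine of the interleukin-6 family, was at 31.1, 37.8 and 36.8 CPM against 67.0, 67.2 and 72.4 CPM. Without Compound A replicate 2, 2 of the higher calls remained. Of 25 interferon and RNA-sensing genes 6 were called (24.0%, near that share), of which IFI35 (0.34) and HERC5 (0.73) were higher and 4 members lower, among them IFIT3 (-0.72), PARP9 (-0.45) and OAS3 (-0.37), with a list median of -0.11 (0.01 for the difference of effects). No higher call was left with DESeq2 or without Compound A replicate 2, and 1 was left in the 15-library fit and without any other single library. DESeq2 left 1 lower and the 15-library fit 2. Without ALOX15 siRNA replicate 2 or Compound A replicate 2 the lower count was 2. Of 13 genes of the RNA interference machinery, AGO3 (0.39), TNRC6A (0.26), TNRC6B (0.31) and PRKRA (0.18) were higher with Compound A and none lower. That is 30.8%, beside 10.8% of all genes higher and 21.8% called either way. AGO2, which cuts siRNA targets, did not pass (0.16, adjusted p = 0.15). That count of 4 was 1 in the 15-library fit and 2 without ALOX15 siRNA replicate 2, Compound A replicate 2 or Compound A replicate 3.

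**Figure D5:**
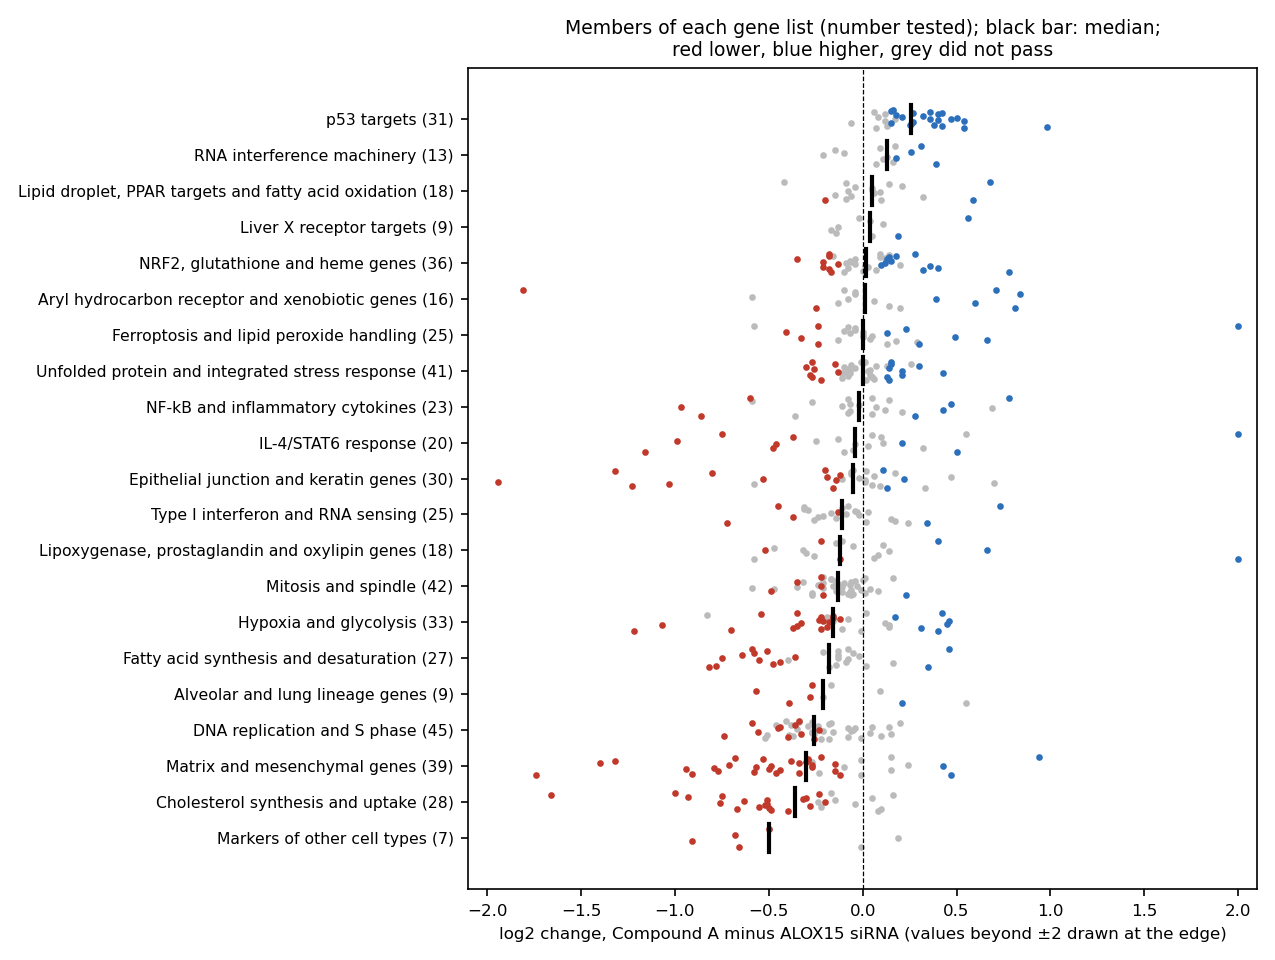
Log2 change, Compound A minus ALOX15 siRNA (x axis), of every tested member of 21 gene lists (y axis, with the number tested); red points are lower, blue higher, grey did not pass, black bars are list medians, and values beyond ±2 are drawn at the edge. Cholesterol (-0.36) and matrix (-0.30) genes lie to the left of 0 and p53 targets (0.26) to the right, while the NRF2 list (0.02) is spread on both sides.

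Most replication genes did not pass, and those that did were lower. Of 45 tested, 11 were lower (24.4%, beside 11.1% of all genes lower and 21.8% called either way), with a median of -0.26. They included the helicase subunits MCM3 (-0.26), MCM4 (-0.40), MCM5 (-0.74) and MCM6 (-0.33), and both ribonucleotide reductase chains RRM1 (-0.36) and RRM2 (-0.59). RRM2 was at 37.7, 27.6 and 32.9 CPM against 49.4, 52.1 and 46.4 CPM. The clamp PCNA gave 0.15 and did not pass (adjusted p = 0.058). DESeq2 and the 15-library fit each called 6 lower. Without Compound A replicate 2, PCNA was higher. Of 42 mitotic genes, 5 were lower and 1, ECT2 (0.23), higher (14.3% called, beside 21.8% of all genes), with a median of -0.13, and CDK1 gave -0.06 (adjusted p = 0.71). The lower count ranged from 2, without Compound A replicate 2 or without replicate 3, to 14 without Compound A replicate 1, and was 3 without ALOX15 siRNA replicate 2. Against IL4 alone, 26 replication and 21 mitotic genes were lower with Compound A (medians -0.51 and -0.38) and none higher, beside 8.07% of all genes lower. Without IL4 replicate 1 both counts were 21, beside 5.84%. Against control siRNA no member of either list passed after knockdown (medians -0.09 and -0.17). Only 0.696% of all genes passed in that comparison, so a count of 0 says little about these lists. By group means, Compound A was below both reference means for 40 of the 45 replication genes and 40 of the 42 mitotic genes, and the knockdown for 31 and 36, beside 5029 and 4337 of the 12466 genes tested.

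Glycolytic and hypoxia genes were lower in part. Of 33 tested, 17 were lower and 6 higher (69.7% called, beside 21.8% of all genes), with a median of -0.16. Every glycolytic enzyme from GPI to LDHA that passed was lower, though by little: GPI (-0.35), ALDOA (-0.33), TPI1 (-0.18), GAPDH (-0.21), PGK1 (-0.23), PGAM1 (-0.12), ENO1 (-0.16), PKM (-0.22) and LDHA (-0.16). The glucose carriers split, SLC2A1 lower (-0.37) and SLC2A3 higher (0.46, with shared reads in 3 libraries). PFKFB4, a regulator of glycolytic flux, differed most among well-measured members, at 6.35, 6.68 and 5.89 CPM against 12.8, 13.0 and 14.1 CPM (log2 -1.07, SE 0.15, adjusted p = 6.5e-07). VEGFA, the best known hypoxia target, gave -0.01 (SE 0.06, adjusted p = 0.92). The 15-library fit called 13 lower and 3 higher.

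Stress and xenobiotic genes are given last. Of 41 unfolded protein and integrated stress genes, 9 were higher and 8 lower (41.5% called, beside 21.8% of all genes), with a median of 0.00. The chaperone CALR was highest (0.43), at 1305, 1509 and 1509 CPM against 1094, 1057 and 1058 CPM, while HSPA5, also a chaperone, gave 0.02 (adjusted p = 0.81). In the 15-library fit 1 was higher and 5 lower. The higher count was 5 without ALOX15 siRNA replicate 1 or replicate 2, and 4 without Compound A replicate 2. Among 16 aryl hydrocarbon receptor and xenobiotic genes, 5 were higher and 2, AHR (-0.25) and UGT1A6, lower (43.8% called, beside 21.8% of all genes). ALDH3A1, an aldehyde dehydrogenase abundant in A549, was at 2404, 2087 and 2172 CPM against 1307, 1278 and 1219 CPM (log2 0.81, SE 0.04, adjusted p = 1e-14). CYP24A1, which degrades vitamin D, was at 776, 661 and 725 CPM against 402, 413 and 388 CPM, and the drug efflux pump ABCG2 at 74.7, 64.9 and 70.2 CPM against 43.9, 41.3 and 42.9 CPM. For these 3 genes both arms differed from their own reference and in opposite directions: ALDH3A1 by 0.26 with Compound A and -0.46 after knockdown, CYP24A1 by 0.28 and -0.55, and ABCG2 by 0.28 and -0.57, each passing. Without IL4 replicate 1, ABCG2 did not pass against IL4 alone (0.21, adjusted p = 0.071). Of 9 alveolar and lineage genes, 4 were lower and 1 higher (55.6% called, beside 21.8% of all genes). The lower ones included ABCA3 (-0.39), CAV1 (-0.28) and HNF4A (-0.27). The higher one, FOXA2 (0.21), did not pass without ALOX15 siRNA replicate 1, ALOX15 siRNA replicate 3 or any of the 3 Compound A replicates. HNF4A did not pass without ALOX15 siRNA replicate 2, Compound A replicate 2 or Compound A replicate 3 (adjusted p = 0.051, 0.076 and 0.057), with DESeq2 (0.061) or in the 15-library fit (0.11). The ferroptosis list, 25 tested, held 6 higher and 4 lower members (40.0% called, beside 21.8% of all genes), with the siRNA target ALOX15 among the higher. The lower ones were the lipid peroxide reductase GPX4 (-0.24, SE 0.05, adjusted p = 0.00054, but 0.14 in the 15-library fit), TFRC (-0.33), SLC40A1 (-0.41) and VDAC3 (-0.24). Of 7 markers of other cell types that could be tested, CD68 (-0.66), COL1A1, TAGLN (-0.68) and TUBB3 (-0.50, shared reads) were lower and none higher (57.1% called, beside 21.8% of all genes). COL1A1 belongs to the matrix list as well. These markers moved with the matrix list, and their part in that result was not tested.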

How the data were processed

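The values are expected counts per gene (RSEM's estimated counts), which the authors deposited unscaled for 26475 genes in 15 libraries. Per the submitters' processing notes they used Bowtie2 2.1.0, RSEM 1.2.15 and hg38. Which annotation, read filters and strandedness they used is not given in the sources used here. Reads shared between genes give counts that are not whole (3.63% to 4.19% of values per library). A named gene is marked where this held in at least 3 of the 6 libraries.

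Counts of the 6 compared libraries were rounded, and filterByExpr kept 12466 genes, with at least 99.85% of the counts in every library. They were scaled by TMM and fitted with edgeR 4.0.16 (robust quasi-likelihood, R 4.3.3). Benjamini-Hochberg adjustment ran over every gene in the fit, and 0.05 was the limit for a call. The SE is the absolute log2 difference divided by the square root of F. The common biological coefficient of variation was 0.0397. Levels are CPM scaled by TMM over all 15 libraries, and group values are mean ± SD. They are not corrected for gene length, so levels are compared within a gene. Values against IL4 alone and control siRNA come from the fit of all 15 libraries.

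Genes named were the 12 highest and 12 lowest log2 differences among genes that passed, reached a mean of 2 CPM and did not overlap. To these were added the 6 smallest p in each direction at 20 CPM or more, ALOX15, SCD, INSIG1 and TNC, and up to 4 members of each of 21 lists in each direction. Other list members were named after their values were seen, and some genes that the rule or the lists hold are not reported here, though list counts include them. The members and lists were chosen with earlier results of these data known. Coordinates are from GENCODE on GRCh38, matched by symbol, and promoters from RefSeq. Alternatives were RLE and upper-quartile scaling, DESeq2 1.42.0, no filter, a filter at 1 CPM in 3 libraries, unrounded counts, all 15 libraries, the difference of effects, a replicate block, a 2-fold minimum and leaving out each library in turn. A GC correction used a loess curve of span 0.3 over the 95.3% of genes with a GC value. Fits without IL4 replicate 1 were added after seeing the data.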

Additional observations from a re-analysis of the deposited data

How the results depend on the processing

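None of the 145 genes named by the rule changed sign under any alternative run. These genes were chosen for passing in the fit of the 6 libraries, which every alternative reuses in whole or in part. The kept sign is therefore not separate evidence of direction. For the difference of effects the interferon list median turned from -0.11 to 0.01 (-0.04 without IL4 replicate 1) and the NF-kB list median from -0.02 to 0.08. The 2720 calls (1342 higher, 1378 lower) became 1487 (689 and 798) with DESeq2, 1171 (451 and 720) in the fit of all 15 libraries, 658 (248 and 410) for the difference of effects, 818 (312 and 506) for that difference without IL4 replicate 1, and 102 (28 and 74) at 2-fold or more. Leaving out each library gave 1809 to 2845 calls, 810 to 1396 higher and 999 to 1449 lower, the lowest without Compound A replicate 2. Other scalings, filters and unrounded counts gave 2659 to 2801. For the difference of effects, the members lower were 10 of the cholesterol list and 13 of the matrix list (15 without IL4 replicate 1), and 8 p53 targets were higher (9 without it). Of all genes, 3.2% were lower and 1.94% higher for that difference, or 3.91% and 2.41% without IL4 replicate 1. The p53 count was 12 in the fit of all 15 libraries. At 2-fold the counts were 2 cholesterol, 0 fatty acid and 3 matrix members lower and 0 p53 targets higher. The cause of these changes was not tested. With a replicate block there were 2634 calls (1297 higher, 1337 lower), and 3 of 145 genes named by the rule lost theirs. Deviations of same-numbered replicates correlated at 0.0157, 0.0181 and -0.121, which gave no sign of pairing by number. With 3 replicates per group these values cannot exclude pairing, and the labels do not say. The block together with the GC correction, planned only for paired numbers, is not given. The median log2 ran from 0.0472 in the fifth of genes lowest in GC content to -0.0547 in the highest, and the GC correction gave 2686 calls (1426 higher, 1260 lower), so that higher calls then outnumbered lower ones. Of the 145 genes, 25 of the 136 with a DESeq2 value lost their call there, 34 in the fit of all 15 libraries, 11 without IL4 replicate 1 in that fit, 65 for the difference of effects, and 7 to 20 without 1 library. ALOX15 had no adjusted p in DESeq2. Depth limits genes of about 1 CPM, such as UBD and TAT, which rest on 14 to 53 counts per group.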
